A study of Rattus norvegicus with 48 samples.

Results

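The mature miRNAs rno-miR-375-3p, rno-miR-203a-3p and rno-miR-203b-3p are 3 of the 188 measured in this set of rat kidney segments. They were chosen by name, after their levels in the segments had been seen, as miRNAs high in tubules and low in the glomerulus. Their levels by segment are therefore given as a description with no test, and only differences between rats and between sequencing runs were tested. Small RNA came from 4 nephron segments (proximal tubule, thick ascending limb, which belongs to Henle's loop, collecting duct, glomerulus), cut by laser from 8 µm frozen kidney sections of 3 naive male Sprague Dawley rats aged 6 months. All groups share strain, sex, age and the lack of any exposure. The tubule segments have 3 libraries each, 1 from each rat, and the glomerulus has 2, labelled rat 1 and rat 3. A further glomerulus library, in 4 runs, carries the label of rat 3 and a title saying it was removed, and was not used here. Each library was read on 4 flow cells, A to D, so 11 libraries gave 44 runs. Tubules were found by antibody fluorescence and glomeruli by a histochemical stain, so the stain and the contrast of tubule with glomerulus cannot be told apart. A captured profile also holds the vessels and interstitial cells around it.

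miRNAs guide the Argonaute protein to messenger RNAs by pairing of the seed, bases 2 to 8 from the 5′ end, and lower the output of those messages. miR-375 is best known from mouse pancreatic islets, where it restrains insulin secretion. miR-203 is best known from mouse and human skin, where it helps keratinocytes leave the stem-cell state by repressing the transcription factor p63. A mature miRNA is cut from 1 arm of a hairpin, and the opposite arm is usually less abundant. The miR-203 locus can give hairpins from both DNA strands, called miR-203a and miR-203b.

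The mature sequences are shown first because the seed sets which messages each miRNA can pair with and because miR-203a-3p and miR-203b-3p resemble each other. They are RefSeq entries on the rat build GRCr8, written 5′ to 3′ with the seed in capitals.
miR-375-3p: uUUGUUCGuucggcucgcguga
miR-203a-3p: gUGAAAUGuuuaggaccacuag
miR-203b-3p: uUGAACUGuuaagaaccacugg
miR-375-3p lies on the minus strand at chr9:83906591-83906612, miR-203a-3p on the plus strand at chr6:137020756-137020777 and miR-203b-3p on the minus strand at chr6:137020716-137020737. miR-203a-3p and miR-203b-3p had the same base at 17 of 22 positions counted from the 5′ end. Their seeds shared 6 of 7 bases and differed by the substitution A6C, with miR-203a-3p taken first. miR-375-3p shared 2 of 7 seed bases with each of them. Of the 188 measured miRNAs 172 had a mature RefSeq sequence of the same name, and none of these shared a seed with miR-375-3p, miR-203a-3p or miR-203b-3p.

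The hairpins show how the miR-203 pair arises from 1 stretch of DNA. The first line below has the mature miR-203a arms in capitals, and the second, the same plus-strand hairpin, has in capitals the bases complementary to the mature miR-203b arms. The third is the miR-375 hairpin with its 2 mature arms in capitals.
miR-203 hairpin, miR-203a arms: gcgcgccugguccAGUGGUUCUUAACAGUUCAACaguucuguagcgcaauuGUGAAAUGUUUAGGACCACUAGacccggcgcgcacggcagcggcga
miR-203 hairpin, miR-203b arms: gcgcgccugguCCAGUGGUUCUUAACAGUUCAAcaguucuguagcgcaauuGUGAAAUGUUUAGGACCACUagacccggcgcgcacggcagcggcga
miR-375 hairpin: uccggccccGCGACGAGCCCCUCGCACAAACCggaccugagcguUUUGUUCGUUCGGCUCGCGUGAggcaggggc
miR-203b-3p lies opposite miR-203a-5p, with 20 bases in common, and shares no base with the place of miR-203a-3p. miR-203a-3p and miR-203b-3p thus come from opposite strands and from opposite sides of this stretch. Each is the 3′ arm of its own hairpin, as its name says. The other arms, miR-375-5p, miR-203a-5p and miR-203b-5p, are not among the 188 and were not analysed here. Whether the authors' counting used strand is not given in the sources used here; without it, reads of the arms that lie opposite each other could not be told apart.

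Values are the authors' normalized counts, which is a signal and not a count of reads. The low values of each run lay on steps of 1 size, taken as the value of 1 read, and these steps put the reads behind the 188 miRNAs at 147996 to 1296995 in a library. Of the 132 values of the 3 miRNAs, 104 were whole numbers of reads within 0.03 reads, 15 were 0 and 13 lay between 0 and 1 read, at 0.00928 to 0.557. The 13 were 7 values of miR-203a-3p and 6 of miR-203b-3p. What the authors' counting did to give part of a read is not given in the sources used here, so these 13 values are treated as below 1 read. Of the cell markers, miR-192-5p and miR-194-5p, known from proximal tubule, made 10.02% to 15.2% of the summed values in proximal tubule libraries, 1.52% to 3.69% in the thick ascending limb, 0.685% to 0.997% in the collecting duct and 0.863% to 1.003% in the glomerulus. The endothelial miR-126a pair made 3.81% to 5.55% in the glomerulus, against 0.791% to 1.48% in the tubule libraries. miR-200b-3p and miR-141-3p, listed for collecting duct and distal epithelium, summed to 222 to 392 in proximal tubule libraries, 287 to 464 in the thick ascending limb, 517 to 1076 in the collecting duct and 17.6 to 74.0 in the glomerulus. miR-143-3p and miR-145-5p of smooth muscle and mesangium made 9.93% to 13.4% of the glomerulus values and 3.07% to 4.38% of the tubule values. Of fibroblast markers 1 of 2 was measured (miR-199a-3p, 34.8 to 132 in tubule libraries, 5.68 to 43.3 in the glomerulus), and of blood markers 1 of 5 (miR-142-5p, 3.78 to 25.3 in tubule libraries, 15.3 to 31.4 in the glomerulus). Markers of hepatocytes and muscle are not among the 188, and no marker of the thick ascending limb was listed, so that label was not checked.

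miR-375-3p was the most abundant of the 3. In the proximal tubule the library values of rno-miR-375-3p, each the mean of 4 runs, were 434, 625 and 1417 in rats 1, 2 and 3. In the thick ascending limb they were 444, 696 and 627, in the collecting duct 182, 281 and 158, and in the glomerulus 15.8 in rat 1 and 21.9 in rat 3. The proximal tubule and thick ascending limb overlapped, every collecting duct library lay below both, and both glomerulus libraries lay below every tubule library. In captured tissue, fewer cells of a type and less RNA per cell cannot be told apart. The segment means were 825 ± 521 for the proximal tubule, 589 ± 130 for the thick ascending limb and 207 ± 65.4 for the collecting duct (SD, n = 3 each) and 18.9 ± 4.35 in the glomerulus (SD, n = 2). miR-375-3p held 0.441%, 0.425% and 0.0978% of the summed values in those tubule segments and 0.0189% in the glomerulus. By segment mean it ranked 26th, 24th and 58th of the 188 in the tubule segments and 94th in the glomerulus. The glomerulus values rest on an estimated 83 reads in rat 1 and 41 in rat 3, so they are not at the counting floor. The ratio of means was 43.7 for the proximal tubule over the glomerulus, 31.2 for the thick ascending limb and 10.97 for the collecting duct. Without the proximal tubule library of rat 3 the first ratio was 28.1, below that of the thick ascending limb.

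**Figure D1:**
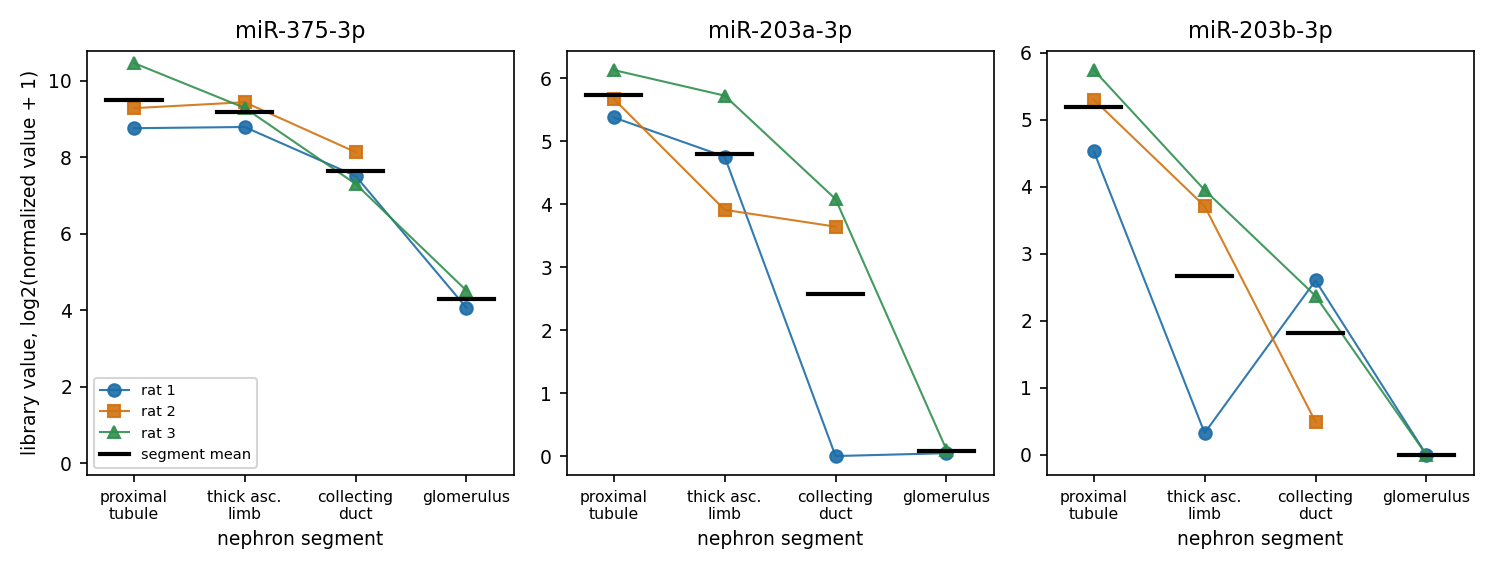
Library values of miR-375-3p, miR-203a-3p and miR-203b-3p, as log2 of the normalized value + 1, in the proximal tubule, thick ascending limb, collecting duct and glomerulus. Each point is 1 library, coloured by rat and joined within a rat, and bars are segment means of the log2 values; miR-375-3p separates from 18.9 in the glomerulus in every tubule segment, while miR-203a-3p and miR-203b-3p each have tubule libraries near 0.

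The first place of the proximal tubule for miR-375-3p rested on 1 animal. Within rats, the ratio of proximal tubule to thick ascending limb was 0.978 in rat 1 and 0.898 in rat 2, and 2.26 in rat 3. The proximal tubule was thus higher in 1 of 3 rats, and its library from rat 3 stood 2.68-fold above the mean of rats 1 and 2. Without that library the proximal tubule mean was 529, against the 589 of the thick ascending limb. The estimated difference of the proximal tubule from the other tubule segments was 1.09 ± 0.44 on the log2 scale (SE, limma model of segment and rat), and 0.58 without the proximal tubule library of rat 3. Its miR-192-5p of 20807 was close to the 21065 of rat 1 and below the 26006 of rat 2. Its miR-182 of 6072 was above the 1385 of rat 1 and 2613 of rat 2. The summed value of that library was also the highest of the proximal tubule, at 210783 against 149060 and 173875. The step down to the collecting duct held in each animal: the thick ascending limb was 2.43, 2.47 and 3.98 times the collecting duct in rats 1, 2 and 3, a log2 difference of 1.52 ± 0.51.

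rno-miR-203a-3p was scarcer. Its values were 40.7, 50.1 and 69.2 in the proximal tubule of rats 1, 2 and 3, 26.1, 14.1 and 52.0 in the thick ascending limb, and 0, 11.5 and 16.0 in the collecting duct. Both glomerulus libraries were below 1 read, at 0.0323 in rat 1 and 0.0735 in rat 3, which is 0.18 and 0.15 reads over 4 runs each. The proximal tubule lay above every collecting duct and glomerulus library but overlapped the thick ascending limb, and the thick ascending limb overlapped the collecting duct. The segment means were 53.3 ± 14.6, 30.7 ± 19.4 and 9.16 ± 8.24 in the tubule segments, in the order above (SD, n = 3 each). Within rats the proximal tubule was higher than the thick ascending limb in 3 of 3, by ratios of 1.56, 3.56 and 1.33. In the glomerulus, 3 reads over both libraries would give a value of 0.381, and against that floor the proximal tubule was at least 140-fold higher, the thick ascending limb at least 80.7-fold and the collecting duct at least 24.1-fold. These limits rest on the pooled depth of both glomerulus libraries: against the glomerulus library of rat 1 alone they were 87.0, 50.1 and 14.9, and against the shallower one of rat 3 alone 34.0, 19.6 and 5.83. Without the thick ascending limb library of rat 3 its limit was 52.7, and the collecting duct limit was 36.1 with rat 1 left out and 15.1 with rat 3 left out of that segment. Floors and intervals here cover counting error only, since reads copied by PCR are not independent molecules.

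The collecting duct library of rat 1 had no miR-203a-3p in any of its 4 runs, among an estimated 744044 reads. A count of 0 there allows a value of up to 0.741, still below the 11.5 and 16.0 of the other rats. miR-203a-3p therefore does not separate every tubule library from the glomerulus. Without that library the difference of the thick ascending limb from the collecting duct was 1.01 on the log2 scale, against 2.23 ± 0.92 with it (SE).

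rno-miR-203b-3p, the product of the opposite strand, was high in the proximal tubule and low in the other segments. Its values there were 22.1, 38.4 and 52.5 in rats 1, 2 and 3. In the thick ascending limb they were 0.254, 12.1 and 14.5, in the collecting duct 5.07, 0.406 and 4.17, and in the glomerulus 0 in all 8 runs. Every proximal tubule library lay above every other library, and the thick ascending limb and collecting duct overlapped. The segment means were 37.7 ± 15.2, 8.93 ± 7.61 and 3.22 ± 2.47 in the tubule segments, in the order above (SD, n = 3 each). The proximal tubule mean was 4.22 times that of the thick ascending limb and 11.7 times that of the collecting duct. Against the glomerulus floor of 0.381 the proximal tubule was at least 99.0-fold higher, the thick ascending limb at least 23.5-fold and the collecting duct at least 8.45-fold. The limits were 61.5, 14.6 and 5.25 against the glomerulus library of rat 1 alone, and 24.0, 5.69 and 2.05 against that of rat 3 alone. The thick ascending limb library of rat 1 and the collecting duct library of rat 2 held less than 1 read of miR-203b-3p in each run, and their separation from the glomerulus is within counting error. The order of the thick ascending limb and collecting duct was not stable: their log2 difference was 0.91 ± 1.03 (SE), −0.0125 without the collecting duct library of rat 2, 0.09 and 0.42 without the thick ascending limb libraries of rats 2 and 3, 2.15 without that of rat 1 and 1.83 without the collecting duct library of rat 1.

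Among all 188 miRNAs, 9.57% had every tubule library above both glomerulus libraries, and miR-375-3p and miR-203b-3p were among them, while miR-203a-3p was not. miR-203b-3p met this rule only within counting error. Its 0.254 in the thick ascending limb of rat 1 and 0.406 in the collecting duct of rat 2 were below 1 read in each run. Every proximal tubule library lay above every thick ascending limb library in 27.7% of miRNAs and above every collecting duct library in 17.6%; miR-203b-3p met both rules, and miR-203a-3p and miR-375-3p the second only. Every proximal tubule library lay above all other libraries in 10.1%, and above every thick ascending limb and collecting duct library in 13.8%, among them miR-203b-3p alone of the 3. Every thick ascending limb library lay above every collecting duct library in 3.19%, among them miR-375-3p alone of the 3. The rule that chose the 3 used these contrasts, so nothing is read from these counts. On the log2(value + 1) scale, which understates the change of low values, tubule minus glomerulus was 4.43 ± 0.51 for miR-375-3p, 4.24 ± 0.92 for miR-203a-3p and 3.18 ± 1.03 for miR-203b-3p (SE), against a median of 0.56 over the 188 miRNAs. That median is not a stable reference: it was 1.47 when rat 1's glomerulus was dropped and −0.25 when rat 3's was dropped. For miR-203a-3p and miR-203b-3p the fitted tubule minus glomerulus values depend on the added 1 and are no bound. Proximal tubule minus the other tubule segments was 2.08 ± 0.80 for miR-203a-3p and 2.96 ± 0.89 for miR-203b-3p, against a median of 0.27 over the 188.

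The proximal tubule marker miR-192-5p gives a scale for proximal tubule RNA in the other segments. It stood in the thick ascending limb, collecting duct and glomerulus at 14.4%, 7.92% and 4.81% of its proximal tubule mean. miR-203b-3p stood at 23.7% and 8.53% of its proximal tubule mean in the thick ascending limb and collecting duct. miR-203a-3p stood at 57.6% and 17.2% there, and miR-375-3p at 71.4% and 25.1%, with 2.29% in the glomerulus. The other proximal tubule marker, miR-194-5p, stood at 10.9%, 10.03% and 4.23% in the thick ascending limb, collecting duct and glomerulus. By these segment means, the shares of the 3 miRNAs in the thick ascending limb were above those of both markers. In the collecting duct miR-203a-3p and miR-375-3p were above both markers. There miR-203b-3p, at 8.53%, was above the 7.92% of miR-192-5p but below the 10.03% of miR-194-5p. In the glomerulus the share of miR-375-3p was below those of both markers. The part of proximal tubule RNA in these values was not tested.

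**Figure D2:**
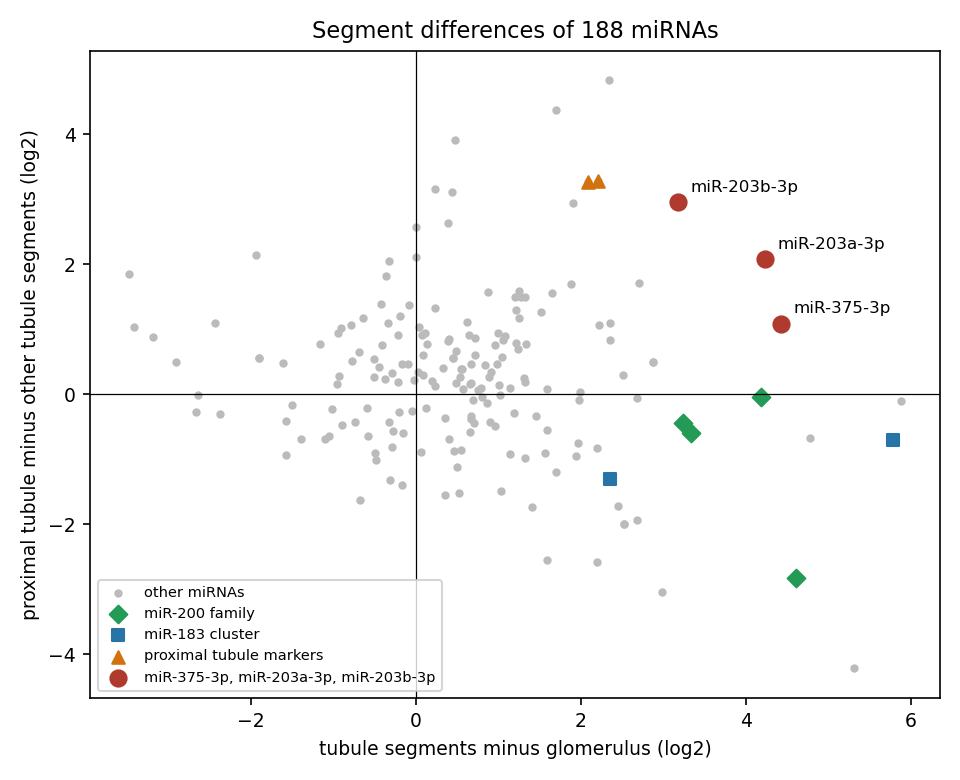
Segment differences of all 188 miRNAs on the log2(value + 1) scale, with tubule segments minus glomerulus on the x axis and proximal tubule minus the other tubule segments on the y axis. Red points are miR-375-3p, miR-203a-3p and miR-203b-3p, which lie at 4.43, 4.24 and 3.18 on x and at 1.09, 2.08 and 2.96 on y; green diamonds are the miR-200 family, blue squares the miR-183 cluster and orange triangles the proximal tubule markers.

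The 2 miR-203 products did not keep a fixed ratio between libraries. In the proximal tubule miR-203b-3p made 35.4%, 44.2% and 40.5% of the pair's estimated reads in rats 1, 2 and 3, with exact 95% binomial intervals of 29.2% to 41.9%, 39.7% to 48.8% and 32.0% to 49.4% (whole reads). These 3 intervals overlap, and miR-203a-3p was the larger in each proximal tubule library. In the thick ascending limb the share was 0.00% of 40 reads in rat 1 (interval up to 8.81%), 46.5% of 71 in rat 2 (34.5% to 58.7%) and 21.4% of 499 in rat 3 (17.9% to 25.3%). In the collecting duct it was 100% of 21 reads in rat 1 (83.9% to 100%), 2.78% of 36 in rat 2 (0.0703% to 14.5%) and 20.5% of 73 in rat 3 (12.0% to 31.6%). The 3 thick ascending limb intervals did not overlap one another, and the collecting duct interval of rat 1 lay apart from those of rats 2 and 3. The collecting duct of rat 1 was the 1 library in which miR-203b-3p exceeded miR-203a-3p. Each of these splits came from the same library on 4 flow cells, and fractions of a read were rounded to whole reads. miR-375-3p was 6.91 to 11.6 times the summed pair in the proximal tubule, 9.44 to 26.6 times in the thick ascending limb and 7.83 to 35.95 times in the collecting duct.

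**Figure D3:**
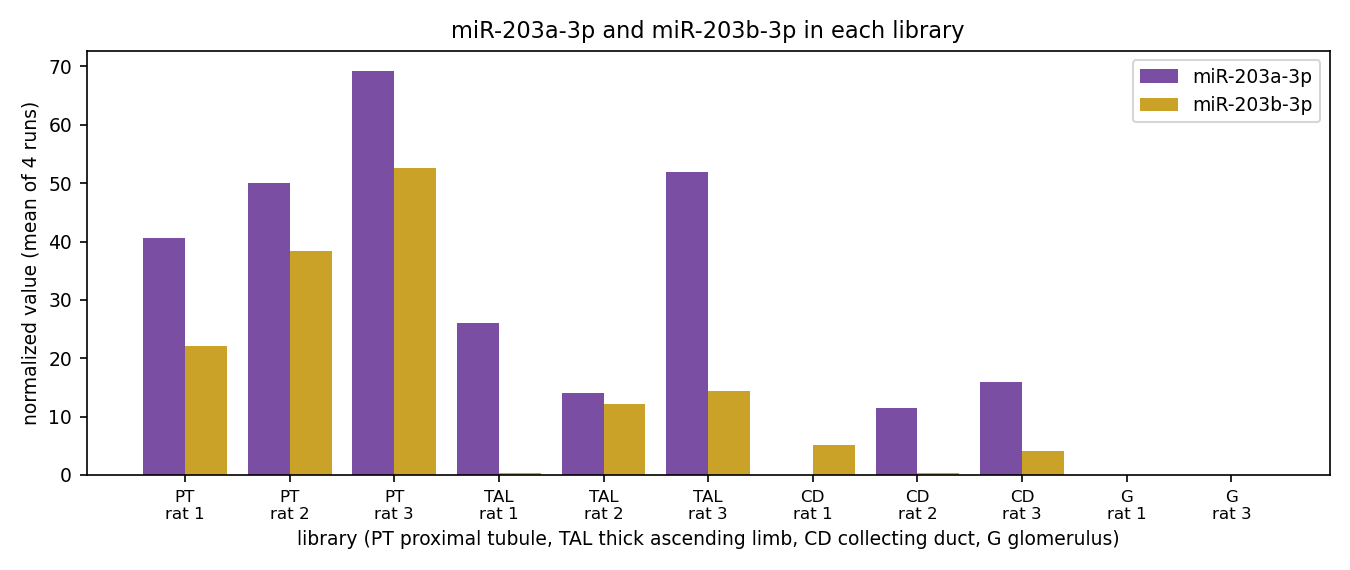
Normalized values of miR-203a-3p (purple) and miR-203b-3p (yellow) in the 11 libraries, each bar the mean of 4 runs. In the proximal tubule miR-203a-3p is 40.7 to 69.2 and miR-203b-3p 22.1 to 52.5, whereas miR-203b-3p is near 0 in the thick ascending limb of rat 1 and the collecting duct of rat 2, and miR-203a-3p is 0 in the collecting duct of rat 1.

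The choice of the 3 miRNAs did not use differences between rats, so these could be tested. No rat difference passed for any of the 3 by limma's F-test with Benjamini-Hochberg adjustment over 188 miRNAs: the adjusted p was 0.992 for each, and the unadjusted p was 0.310 for miR-375-3p, 0.193 for miR-203a-3p and 0.472 for miR-203b-3p. Of all 188 miRNAs, 0% passed after adjustment and 4.26% at an unadjusted p below 0.05. Rat 1 had the lowest fitted level of each, by −0.40, −0.75 and −0.54 from the mean of the rats on the log2 scale for miR-375-3p, miR-203a-3p and miR-203b-3p, and rat 3 the highest, by 0.22, 0.70 and 0.56. In single segments rat 1 was lowest for the 3 miRNAs in the proximal tubule, but it had the highest miR-203b-3p in the collecting duct.

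Differences between flow cells were likewise open to a test, and 0 of the 3 miRNAs passed. The adjusted p, by limma's F-test over 44 runs with the library as a block, was 0.510 for miR-375-3p, 0.865 for miR-203a-3p and 0.631 for miR-203b-3p, where 28.2% of all 188 miRNAs passed. The unadjusted p was 0.352, 0.805 and 0.483, each above 0.05, where 37.2% of the 188 were below it. Runs of a library share its RNA, so this concerns sequencing only. The mean of a flow cell departed from the mean of all 4 by −0.07 to 0.08 on the log2 scale for miR-375-3p, by −0.08 to 0.07 for miR-203a-3p and by −0.15 to 0.16 for miR-203b-3p. Within a tubule library the coefficient of variation over the 4 runs was 5.70% to 15.0% for miR-375-3p, and 24.6% and 30.1% in the glomerulus libraries. The proximal tubule of rat 3 held miR-203b-3p at 34.6 to 87.6 over its runs, from 53 reads in all. The missing miR-203a-3p of the collecting duct of rat 1 was missing in each of the 4 runs, while that library had 2.53 to 7.23 of miR-203b-3p.

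**Figure D4:**
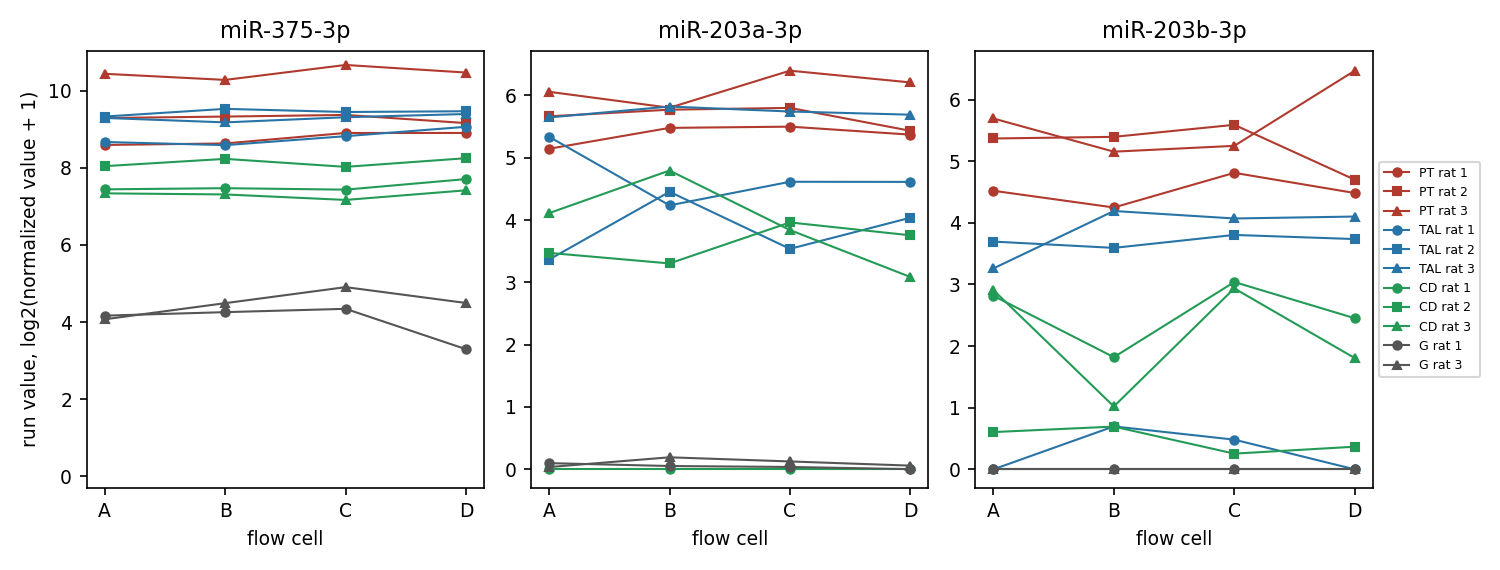
Values of the 44 runs by flow cell for miR-375-3p, miR-203a-3p and miR-203b-3p, as log2 of the normalized value + 1, with a line for each library (colour for segment, marker for rat). The lines of miR-375-3p are nearly flat in tubule libraries but not in the glomerulus, where the runs of rat 1 span 8.81 to 19.3. Its flow-cell means over all libraries lie within −0.07 to 0.08 of the overall mean, while miR-203b-3p varies more in the collecting duct libraries.

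The closest profiles were found by the mean absolute difference over 11 libraries in log2(value + 1), after each miRNA's own mean was subtracted, among the other miRNAs with a mean value of at least 10 (125 for each of the 3). Closest to miR-375-3p were miR-3557-5p at 0.78, miR-203a-3p at 0.81, let-7g-5p at 1.04, miR-203b-3p at 1.06 and miR-199a-3p at 1.14, where the median candidate stood at 1.60. let-7g-5p is a member of the let-7 family, known for repressing growth genes, and miR-199a-3p is known from fibroblasts. For miR-203a-3p the order was miR-375-3p at 0.81, miR-3557-5p at 1.20, miR-192-5p at 1.20, miR-194-5p at 1.25 and miR-203b-3p at 1.32, against a median of 1.89. miR-375-3p was thus nearer to miR-203a-3p than miR-203b-3p was. For miR-203b-3p the order was miR-192-5p at 0.92, miR-194-5p at 1.02, miR-375-3p at 1.06, miR-3557-5p at 1.21 and let-7g-5p at 1.31, against a median of 1.88, and miR-203a-3p came 6th. miR-3557-5p had means of 7084 in proximal tubule, 4163 in thick ascending limb, 2813 in the collecting duct and 1042 in the glomerulus. The points share libraries and their depth, and the 3 were chosen by their levels in these same libraries. Nothing is read from their nearness to one another, and these distances are a description.

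**Figure D5:**
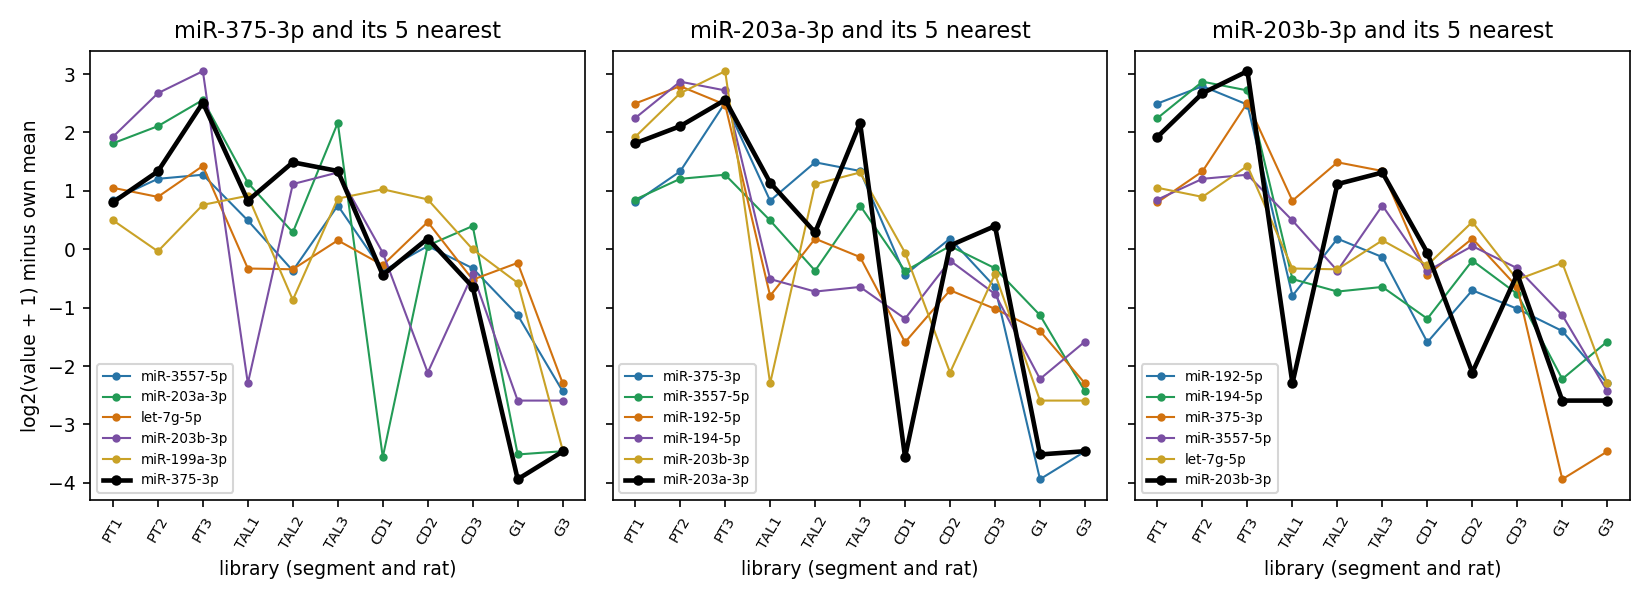
Profiles of miR-375-3p, miR-203a-3p and miR-203b-3p (black) and the 5 nearest miRNAs of each over the 11 libraries (PT proximal tubule, TAL thick ascending limb, CD collecting duct, G glomerulus, with the rat number), as log2(value + 1) minus each miRNA's own mean. The distance of the nearest was 0.78 for miR-375-3p, 0.81 for miR-203a-3p and 0.92 for miR-203b-3p.

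Members of 4 lists of related miRNAs were set beside the 3. Of the miR-200 family, which keeps cells epithelial by repressing ZEB factors, 4 members were measured and 4 had every tubule library above both glomerulus libraries. The family's median difference of tubule minus glomerulus was 3.77 on the log2 scale, near the values of the 3 miRNAs, and its median of proximal tubule minus the other tubule segments was −0.52, with a lowest value of −2.82 and a highest of −0.04. Of the miR-183 cluster, known from sensory epithelia, 2 members were measured; miR-182 had every tubule library above both glomerulus libraries and miR-96-5p did not, and they differed by −1.30 to −0.70 for proximal tubule minus the other tubule segments. Of miRNAs known beside miR-203 in stratified epithelium, 5 were measured, and miR-205, an epidermal miRNA, and miR-31a-5p met the same rule. miR-24-3p, miR-34a-5p and miR-184 did not. The median tubule minus glomerulus of the 5 was 1.15, from −2.66 to 5.32. miR-24-3p averaged 41.2 in proximal tubule, 35.1 in thick ascending limb, 60.2 in the collecting duct and 86.5 in the glomerulus. miR-205 averaged 23.1 in proximal tubule, 30.6 in thick ascending limb, 161 in the collecting duct and 7.35 in the glomerulus, so its order over the tubule segments ran opposite to that of miR-203a-3p. Of 6 islet and neuroendocrine miRNAs known beside miR-375, miR-184 and miR-9a-5p were measured and 0 met the rule. miR-9a-5p, a neural miRNA, averaged 2.79, 7.20 and 58.9 in the tubule segments, in the order above, and 0.448 in the glomerulus, and miR-184 averaged 6.45, 9.68 and 9.12 there and 52.4 in the glomerulus. Over the 188 miRNAs the medians were 0.56 for tubule minus glomerulus and 0.27 for proximal tubule minus the other tubule segments, and 9.57% met the rule.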

How the data were processed

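Small RNA libraries (TruSeq small RNA kit, 50 bp single-end reads on a HiSeq2000, per the labels' protocols) were read on 4 flow cells. The deposited values are a signal made by the authors, TMM-normalized counts of 188 mature miRNAs after a filter on low counts, per the name of their table. Bowtie 1.0.0, Bowtie2 2.2.5, Partek 6.0 and the build rn6 are named, per the submitters' processing notes; sequences shown are from RefSeq on GRCr8. Values were used as deposited and averaged over the 4 runs of a library, so n counts rats.

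The value of 1 read was found in each run as the step on which low values (up to 30 reads) fell within 0.03 reads; 88.3% to 99.0% of them were whole, so counts could not be recovered throughout and were not tested. Tolerance and limit were chosen once values were known. Summed values of a run were 67892 to 262875. The floor of 3 reads over a group is 3 divided by the group's estimated reads, times its mean summed value.

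Models used limma 3.58.1 in R 4.3.3 on log2(value + 1), with a variance trend, over all 188 miRNAs, and were tested on simulated data. The library model holds segment and rat, with 5 residual degrees of freedom, and miRNAs of like abundance shared 1 variance. Its SE and rat F-tests therefore use that shared variance and not each miRNA's own spread. Segment differences carry no p. F-tests for rat (segment in the model) and flow cell (library in the model) used Benjamini-Hochberg adjustment at 0.05. The rat was kept as a block because segments of a rat come from 1 animal; the libraries' deviations correlated with a median of 0.03 in 15 same-rat pairs and −0.01 in 30 pairs of different rats. The miRNAs named besides the 3 are the 5 nearest of each and the fixed lists. Members and lists were chosen with earlier results of these data known. Alternatives were other pseudocounts, scalings, flow cells alone, a mean value of at least 10, no variance trend, log2 of the mean, no block, and each library left out.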

Additional observations from a re-analysis of the deposited data

How the results depend on the processing

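Leaving out each library in turn gave tubule minus glomerulus of 4.18 to 4.63 for miR-375-3p, 3.31 to 5.17 for miR-203a-3p and 2.45 to 3.91 for miR-203b-3p, on the log2 scale. Proximal tubule minus the other tubule segments ran from 0.58 to 1.39, 1.47 to 2.47 and 2.34 to 3.42 for the same miRNAs. Thick ascending limb minus collecting duct ran from 1.13 to 1.75, 1.01 to 3.02 and −0.0125 to 2.15; the last, of miR-203b-3p, turned negative without the collecting duct library of rat 2, which held less than 1 read in each run. With no replicate block, tubule minus glomerulus was 4.52, 4.26 and 3.17, and the contrasts between tubule segments kept their values, since every rat has all 3. The median tubule minus glomerulus of all 188 miRNAs moved from 0.56 to 1.47 when rat 1's glomerulus was dropped. It moved to −0.25 when rat 3's was dropped. These omissions also gave the highest and lowest values of miR-203a-3p and miR-203b-3p. miR-375-3p was then 4.53 and 4.34.

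A pseudocount of 5 brought tubule minus glomerulus to 2.51 for miR-203a-3p and 1.61 for miR-203b-3p, by its own construction at low values. Rescaling moved the median tubule minus glomerulus of all miRNAs from 0.56 to 0.08 (same total), 0.20 (median of ratios) and −0.02 (quantiles). Tubule minus glomerulus of miR-375-3p was then 3.84 by same total and 3.79 by quantiles, and that of miR-203a-3p was 2.30 by quantiles. Thick ascending limb minus collecting duct of miR-375-3p was 2.06 by same total and 2.33 by quantiles. For that contrast the median of all miRNAs moved from −0.36 to 0.15 by same total and 0.10 by quantiles. Beyond these shifts of the medians, the cause was not tested. Of all 188 miRNAs, 1 differed among rats with a pseudocount of 5 and 0 to 2 with a library left out, 2 without either glomerulus library. For flow cells the count was 53, with 21 by quantiles and 46 to 54 with a library left out. None of the 3 miRNAs passed either test under any of these alternatives; the lowest adjusted p was 0.0917, for flow cells and miR-375-3p. Depth limits the miR-203 pair: a count of 0 in a library was taken to allow a value of up to 3 reads.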
